A study of Homo sapiens with 8 samples.

Results

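The APOBEC3 genes encode 7 cytidine deaminases, APOBEC3A, APOBEC3B, APOBEC3C, APOBEC3D, APOBEC3F, APOBEC3G and APOBEC3H, which lie side by side on human chromosome 22. They were followed through 8 RNA sequencing libraries of ARP1 and H929, cell lines grown from multiple myeloma, a plasma cell cancer. The members were defined by gene name, and the 19 transcripts of these 7 genes were taken out of 87707 annotated transcripts, the 7 genes out of 24351. The family was chosen from earlier results of these same libraries, in which APOBEC3H stood out in the comparison of CHEK1 overexpression with its control. Levels in that comparison, and in any that shares its control, are therefore given as a description, without a test of single members.

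Each line had 4 libraries, 1 for each genotype: CHEK1 overexpression, the control of overexpression, CHEK1 knockdown and the control of knockdown. CHEK1 encodes the checkpoint kinase CHK1, which delays mitosis while DNA is damaged or unreplicated. How CHEK1 was raised or lowered, and whether a line was cloned after treatment, is not given in the labels. No line had a replicate of a genotype, so the 2 lines stand in as the replicates of each genotype, and a p-value speaks only of the spread among these 8 libraries. Values are FPKM (sequenced fragments per kilobase of transcript after scaling for depth), as the authors deposited them, summed per gene. FPKM is per length, so levels can be set side by side between genes.

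APOBEC3 enzymes remove the amino group of cytosine in single-stranded DNA and so turn it into uracil. The family is known for mutating the DNA of retroviruses and retrotransposons as it is copied. In tumours, myeloma among them, APOBEC3A and APOBEC3B are regarded as the main sources of a mutation pattern at cytosines that follow a thymine. Each enzyme has 1 or 2 zinc-binding deaminase domains, and in each domain a histidine and a pair of cysteines hold the zinc. In a domain that is active a glutamate takes part in the reaction, and a zinc site alone does not show that its domain is active.

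The zinc sites show how alike the members are, which matters for assigning reads to them. In the reading frame of the most abundant transcript of each gene with a complete frame (GENCODE release 29, chromosome 22, plus strand), the pattern histidine, any residue, glutamate, 23 to 28 residues, proline, cysteine, 2 to 4 residues, cysteine was found 1 time in APOBEC3A, APOBEC3C and APOBEC3H and 2 times in APOBEC3B, APOBEC3D, APOBEC3F and APOBEC3G. The coding bases of the 8 different sites are given 5′ to 3′, with capitals for the codons of the histidine, the glutamate and both cysteines.
APOBEC3A site and APOBEC3B site 2: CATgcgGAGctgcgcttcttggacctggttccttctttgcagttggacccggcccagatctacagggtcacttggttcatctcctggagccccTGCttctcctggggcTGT
APOBEC3B site 1 and APOBEC3F site 1: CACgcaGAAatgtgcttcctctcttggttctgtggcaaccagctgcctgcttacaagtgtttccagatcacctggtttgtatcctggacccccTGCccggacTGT
APOBEC3C site: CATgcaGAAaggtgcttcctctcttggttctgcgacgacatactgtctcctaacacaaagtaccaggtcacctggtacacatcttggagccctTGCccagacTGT
APOBEC3D site 1: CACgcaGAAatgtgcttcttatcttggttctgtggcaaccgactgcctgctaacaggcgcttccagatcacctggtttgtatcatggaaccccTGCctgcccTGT
APOBEC3D site 2 and APOBEC3F site 2: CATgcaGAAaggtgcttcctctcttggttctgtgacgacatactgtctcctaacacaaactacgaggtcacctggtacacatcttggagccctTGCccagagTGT
APOBEC3G site 1: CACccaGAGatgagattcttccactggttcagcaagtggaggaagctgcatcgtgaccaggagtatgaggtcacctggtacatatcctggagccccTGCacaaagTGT
APOBEC3G site 2: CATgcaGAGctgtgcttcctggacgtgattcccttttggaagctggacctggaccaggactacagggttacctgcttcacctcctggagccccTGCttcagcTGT
APOBEC3H site: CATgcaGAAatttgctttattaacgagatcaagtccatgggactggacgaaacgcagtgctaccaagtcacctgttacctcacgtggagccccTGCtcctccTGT

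The APOBEC3A site and the second APOBEC3B site were identical over 111 bases. The first sites of APOBEC3B and APOBEC3F were identical over 105 bases, and so were the second sites of APOBEC3D and APOBEC3F. The APOBEC3C site differed from that second site of APOBEC3D and APOBEC3F at 4 of 105 bases, and the first site of APOBEC3D from that of APOBEC3B and APOBEC3F at 13. Over the whole most abundant transcript, stretches of 50 bases that also occur in another member made up 50.6% for APOBEC3A, 50.5% for APOBEC3B, 24.0% for APOBEC3F, 19.1% for APOBEC3G, 15.2% for APOBEC3D, 1.2% for APOBEC3C and 0% for APOBEC3H. With stretches of 100 bases these shares were 39.0%, 36.5%, 13.5%, 11.3%, 9.2%, 0% and 0% in the same order of genes. Levels of APOBEC3A, APOBEC3B, APOBEC3D, APOBEC3F and APOBEC3G thus depend on how shared reads were divided, which the sources used here do not give. APOBEC3C and APOBEC3H share little or nothing with the others.

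APOBEC3B (ENSG00000179750, chromosome 22, 38982347 to 38992804 in build GRCh38), a nuclear enzyme with 2 domains, was the most abundant member. It stood at 46.7 FPKM in the ARP1 overexpression library and 41.6 in its control, and at 85.0 in the knockdown-labelled ARP1 library and 54.5 in its control. In H929 it stood at 83.2 with overexpression and 73.9 in its control, and at 69.8 in the library labelled knockdown and 90.2 in its control. The ARP1 library labelled knockdown was the highest of its line, and the H929 library labelled knockdown was the lowest of its line. APOBEC3B-201, of 1533 nt, carried 88.3% to 93.4% of the gene's FPKM.

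APOBEC3C (ENSG00000244509, 39014083 to 39020352), a small enzyme with 1 domain, came next. It stood at 61.4 FPKM with overexpression and 36.5 in its control in ARP1, and at 64.8 and 45.7 in H929. It stood at 72.2 in the knockdown-labelled ARP1 library and 72.4 in its control, and at 60.6 and 61.5 in H929. The control of overexpression was the lowest library in each line, and the other 3 libraries of a line lay close together. APOBEC3C was listed with 1 transcript, APOBEC3C-201.

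APOBEC3D (ENSG00000243811, 39021113 to 39033276) and APOBEC3F (ENSG00000128394, 39040604 to 39053910) are enzymes with 2 domains that act on retroviruses. APOBEC3D stood at 9.36 FPKM with overexpression and 4.57 in its control in ARP1, and at 9.84 and 6.49 in H929. In the libraries labelled knockdown it stood at 10.6 against 5.26 in its control in ARP1, and at 6.40 against 8.43 in H929. For APOBEC3D the 2 ARP1 controls were thus the lowest libraries of ARP1, while in H929 the library labelled knockdown and the control of overexpression were lowest. APOBEC3F stood at 4.95 FPKM with overexpression and 2.42 in its control in ARP1, and at 5.05 and 3.47 in H929. It stood at 8.59 in the knockdown-labelled ARP1 library and 4.94 in its control, and at 4.91 and 4.42 in H929. Here the control of overexpression was lowest in each line.

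APOBEC3G (ENSG00000239713, 39077005 to 39087743), the enzyme with 2 domains that the HIV protein Vif targets for destruction, was the member that set the lines apart. It stood at 4.84 FPKM with overexpression and 1.72 in its control in ARP1, and at 6.21 in the library labelled knockdown and 5.91 in its control. In H929 it stood at 0.211 with overexpression and was listed at 0 in its control, and it stood at 0.271 in the library labelled knockdown and 0.259 in its control. Every ARP1 library lay above every H929 library.

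APOBEC3H (ENSG00000100298, 39097224 to 39104067), an enzyme with 1 domain that differs between people in stability, was among the least abundant members. It stood at 2.23 FPKM with overexpression and 0.369 in its control in ARP1, and at 3.29 and 0.845 in H929. It stood at 4.41 in the knockdown-labelled ARP1 library and 1.71 in its control, and at 1.44 and 3.40 in H929. The control of overexpression was lowest in each line, and the knockdown arm ran in opposite directions in the lines.

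APOBEC3A (ENSG00000128383, 38952741 to 38992778), the enzyme that myeloid cells make on interferon, was at 0.0958 FPKM in the knockdown-labelled ARP1 library and at most 7.75e-22 in the other 7 libraries. It missed the filter, which asked for 2 libraries with FPKM 1 or more, so 6 of the 7 members were tested. Its annotated span overlaps that of APOBEC3B, and APOBEC3A-205, its highest transcript, shares the bases named above with APOBEC3B. Both genes also overlap the antisense gene APOBEC3B-AS1, and whether reads were assigned by strand is not stated.

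**Figure D1:**
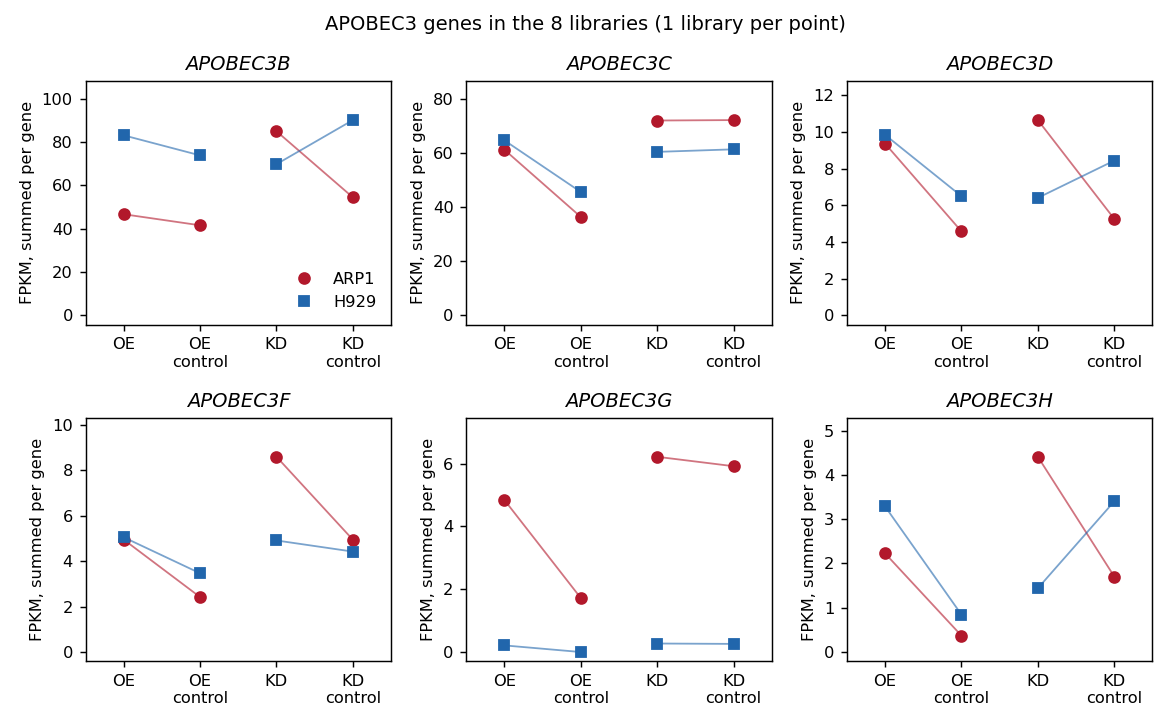
FPKM of the 6 members above the filter (vertical axis, from 0) in the 4 genotypes (OE, CHEK1 overexpression; KD, library labelled knockdown; each left of its control), with red circles for ARP1 and blue squares for H929, 1 library per point and lines joining a library to its control. All 6 members are lower in the overexpression control than in the overexpression library of each line, while APOBEC3B, APOBEC3D and APOBEC3H run in opposite directions in the knockdown arm.

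By mean over the 8 libraries the order was APOBEC3B (68.1 FPKM), APOBEC3C (59.4), APOBEC3D (7.62), APOBEC3F (4.84), APOBEC3G (2.43), APOBEC3H (2.21) and APOBEC3A (0.0120). APOBEC3C exceeded APOBEC3D in 8 of 8 libraries with ranges that did not overlap. The other neighbours among the 6 had overlapping ranges: APOBEC3B exceeded APOBEC3C in 6 of 8 libraries, APOBEC3D exceeded APOBEC3F in 8, APOBEC3F exceeded APOBEC3G in 7, and APOBEC3G exceeded APOBEC3H in 4. APOBEC3B and APOBEC3C together held 83.5% to 91.7% of the family's summed FPKM. That sum was 130 with overexpression and 87.2 in its control in ARP1, and 166 and 130 in H929. It was 187 in the library labelled knockdown and 145 in its control in ARP1, and 143 and 168 in H929.

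With CHEK1 overexpression, all 6 members above the filter stood higher than in the control of overexpression in each line. For APOBEC3G in H929, here and in the comparisons below, the order rests on values near the floor, from 0 to 0.271 FPKM. Of all 14905 genes tested, 28.0% were higher in both lines in this way. Log2 ratios of FPKM plus 1 were 1.24 in ARP1 and 1.22 in H929 for APOBEC3H, 1.10 and 0.28 for APOBEC3G, and 0.89 and 0.53 for APOBEC3D. They were 0.80 and 0.44 for APOBEC3F, 0.74 and 0.49 for APOBEC3C, and 0.16 and 0.17 for APOBEC3B. In the fit over both lines the log2 fold changes were 1.23 (SE 0.45) for APOBEC3H, 0.71 (SE 0.30) for APOBEC3D, 0.69 (SE 0.32) for APOBEC3G, 0.62 (SE 0.27) for APOBEC3F, 0.61 (SE 0.17) for APOBEC3C and 0.17 (SE 0.28) for APOBEC3B. The median of the 6 was 0.65, beside -0.01 over all genes tested. The lines contributed unequally, with a median of the log2 ratios of 0.85 in ARP1 and 0.47 in H929.

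None of the 6 was called by limma with Benjamini-Hochberg adjustment at 0.05, a rule that called 0.00671% of all genes in this comparison. Before adjustment 2 of the 6 had p under 0.05, as had 4.45% of all genes. Nothing about the family is read from these counts, since the comparison took part in its choice. APOBEC3B stood at -0.03 without the ARP1 control of overexpression and at -0.03 without the H929 overexpression library. The other 5 stayed above 0 with each library left out. Without the ARP1 control of overexpression, however, APOBEC3G stood at 0.21, APOBEC3F at 0.29 and APOBEC3C at 0.39, and without the H929 one APOBEC3G stood at 1.17 and APOBEC3F at 0.95.

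The position of the 6 members depended on which control of the line was used. When the control of overexpression was set over that of knockdown, all 6 were lower in each line, as were 32.9% of all genes. The log2 fold changes of the fit were -1.12 (SE 0.45) for APOBEC3H, -0.84 (SE 0.32) for APOBEC3G, -0.69 (SE 0.17) for APOBEC3C, -0.54 (SE 0.27) for APOBEC3F, -0.33 (SE 0.28) for APOBEC3B and -0.25 (SE 0.30) for APOBEC3D. None was called by limma (0.0537% of all genes were), and 3 of the 6 had p under 0.05 before adjustment, as had 10.7% of all genes. Nothing is read from these counts either, since the control of overexpression took part in the choice of the family. For APOBEC3D the value was 0.07 without the H929 control of knockdown. The control of overexpression was the lowest of the 4 libraries in both lines for 4 of the 6, APOBEC3C, APOBEC3F, APOBEC3G and APOBEC3H, and for 6.2% of all genes tested. In H929 every APOBEC3G value was at most 0.271 FPKM. The APOBEC3H controls of overexpression stood at 0.369 FPKM in ARP1 and 0.845 in H929, so these places rest on low values.

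Set against the control of knockdown in place of its own control, the overexpression library was not higher throughout. APOBEC3D (log2 ratios 0.73 in ARP1 and 0.20 in H929) and APOBEC3F (0.00 and 0.16) were higher in both lines, as were 30.3% of all genes, although APOBEC3F in ARP1 stood at 4.95 FPKM with overexpression and 4.94 in that control. APOBEC3B (-0.22 and -0.12) and APOBEC3G (-0.24 and -0.06) were lower in both lines, as were 34.0% of all genes. APOBEC3H (0.25 and -0.04) and APOBEC3C (-0.23 and 0.07) went in opposite directions. The comparisons with the control of overexpression share that library, so their opposite signs are not independent of each other.

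**Figure D2:**
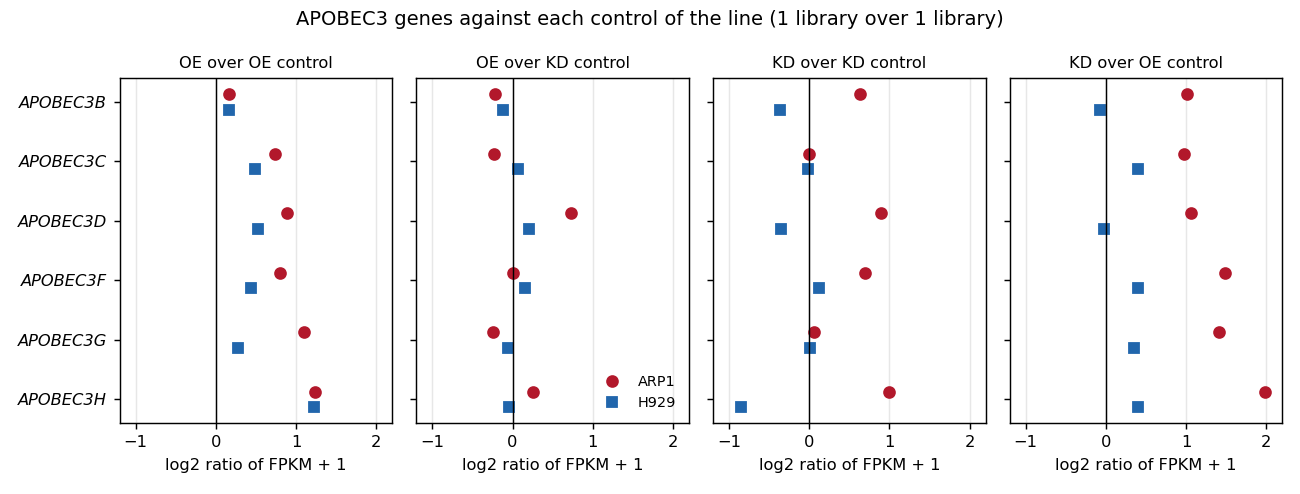
Log2 ratios of FPKM plus 1 (horizontal axis) of the 6 members (rows) in 4 panels: overexpression over its own control, overexpression over the control of knockdown, knockdown label over its own control, and knockdown label over the control of overexpression, with red circles for ARP1 and blue squares for H929. All 12 points of the first panel lie right of 0, while those of the second lie on both sides.

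In the libraries labelled knockdown the lines did not move together. APOBEC3H stood at a log2 ratio of 1.0 in ARP1 and -0.85 in H929, APOBEC3D at 0.90 and -0.35, and APOBEC3B at 0.63 and -0.36. APOBEC3F was higher in both lines (0.69 and 0.12), APOBEC3G differed by 0.06 and 0.01, and APOBEC3C by 0.00 and -0.02. Thus 2 of the 6, APOBEC3F and APOBEC3G, were higher in both lines, beside 27.2% of all genes. In the fit over both lines log2 fold changes ran from -0.01 (SE 0.17) for APOBEC3C to 0.41 (SE 0.27) for APOBEC3F, with a median of 0.10 beside -0.02 over all genes. By limma none of the 6 was called (0.0134% of all genes were), none had p under 0.05 before adjustment (9.14% of all genes had), and adjusted p ran from 0.628 for APOBEC3F to 0.985 for APOBEC3C.

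The ARP1 library labelled knockdown stood apart from its control at 2-fold or more in 1231 genes, against 536 in H929, and it held the highest level of its line for APOBEC3B, APOBEC3D, APOBEC3F, APOBEC3G and APOBEC3H. CHEK1 itself was at 51.6 FPKM in that library and 61.0 in its control, and at 84.8 and 80.7 in H929, so the H929 library labelled knockdown did not hold less CHEK1 than its control. With overexpression CHEK1 stood at 114 and 78.2 in its control in ARP1, and at 107 and 81.5 in H929. Without the H929 library labelled knockdown, which leaves the ARP1 one alone in its genotype, APOBEC3B stood at a log2 fold change of 0.67. Without the ARP1 library labelled knockdown APOBEC3B stood at -0.40, APOBEC3D at -0.23, APOBEC3G at -0.19 and APOBEC3H at -0.76. Against the control of overexpression, 4 of the 6, APOBEC3C, APOBEC3F, APOBEC3G and APOBEC3H, were higher in both libraries labelled knockdown, beside 29.7% of all genes.

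Between the lines, APOBEC3G was the member that differed past the threshold. It averaged 4.67 ± 2.06 FPKM in ARP1 and 0.185 ± 0.126 in H929 (SD, n = 4 libraries per line, 1 of each genotype), a 25.2-fold ratio of means. By limma the log2 fold change of ARP1 over H929 was 2.17 (SE 0.23, adjusted p = 0.00192), and it was 4.08 with a pseudocount of 0.1. APOBEC3G passed the filter only through ARP1, the line where it is high, so its call is no independent support for the difference. Of all genes tested, 27.1% were called between the lines, and 1 of the 6 members was. APOBEC3B averaged 57.0 ± 19.5 FPKM in ARP1 and 79.3 ± 9.18 in H929 (log2 fold change -0.52, SE 0.20, limma adjusted p = 0.0941). With either library labelled knockdown left out, APOBEC3B stood at -0.78. Both runs rest on the same libraries, since the remaining knockdown library is alone in its genotype and adds nothing to the line term. The remaining 4 members had log2 fold changes from -0.11 for APOBEC3D to 0.11 for APOBEC3F, with adjusted p from 0.719 to 0.918 by limma. For these 4 the SE was 0.12 to 0.32, so differences between the lines of that size were not detectable here.

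The transcripts behind a gene sum were stable for APOBEC3B and shifted most for APOBEC3H. APOBEC3H-204, of 988 nt, was its highest transcript by mean, at 1.19 FPKM. It stood at 0.762 FPKM with overexpression and 0.369 in its control in ARP1, and at 2.68 and 3.6e-06 in H929. It stood at 2.74 in the knockdown-labelled ARP1 library and 0.000185 in its control, and at 1.01 and 1.99 in H929. In the controls of overexpression all of the APOBEC3H signal was thus placed in APOBEC3H-204 in ARP1 and in APOBEC3H-201 in H929, at 0.845 FPKM. The share of the gene in APOBEC3H-204 ran from 0% to 100%, so the gene sum was used for all comparisons.

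For APOBEC3F, the full-length APOBEC3F-201 (2694 nt) made up most of the gene in 7 of 8 libraries. It stood at 3.98 FPKM with overexpression and 1.11 in its control in ARP1, and at 4.40 and 2.34 in H929. The short APOBEC3F-202 (616 nt) was lower with overexpression, with 0.963 FPKM in the overexpression library and 1.3 in its control in ARP1, and 0.645 and 1.12 in H929. In the knockdown arm both transcripts were higher in the library labelled knockdown than in its control in each line. APOBEC3F-202 stood at 1.35 FPKM in that ARP1 library and 0.805 in its control, and at 0.799 and 0.495 in H929. APOBEC3F-201 held 7.24 FPKM in that ARP1 library and 4.13 in its control, and 4.11 and 3.92 in H929. In the ARP1 control of overexpression the short transcript made up 53.9% of the gene, the highest share of the 8 libraries. For APOBEC3D, APOBEC3D-201 (2528 nt) held 5.69 FPKM with overexpression and 2.98 in its control in ARP1, and 5.13 and 3.91 in H929. APOBEC3D-202 (1961 nt) held 3.67 FPKM with overexpression and 0.526 in its control in ARP1, and 2.88 and 2.28 in H929. The full-length transcripts of both genes were thus higher in the overexpression library of each line, as the sums were. The short APOBEC3D-203 (591 nt) ran in opposite directions in the lines. It held 2.0e-08 FPKM with overexpression and 1.07 in its control in ARP1, and 1.83 and 0.309 in H929. In the ARP1 control of overexpression it made up 23.4% of the gene.

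**Figure D3:**
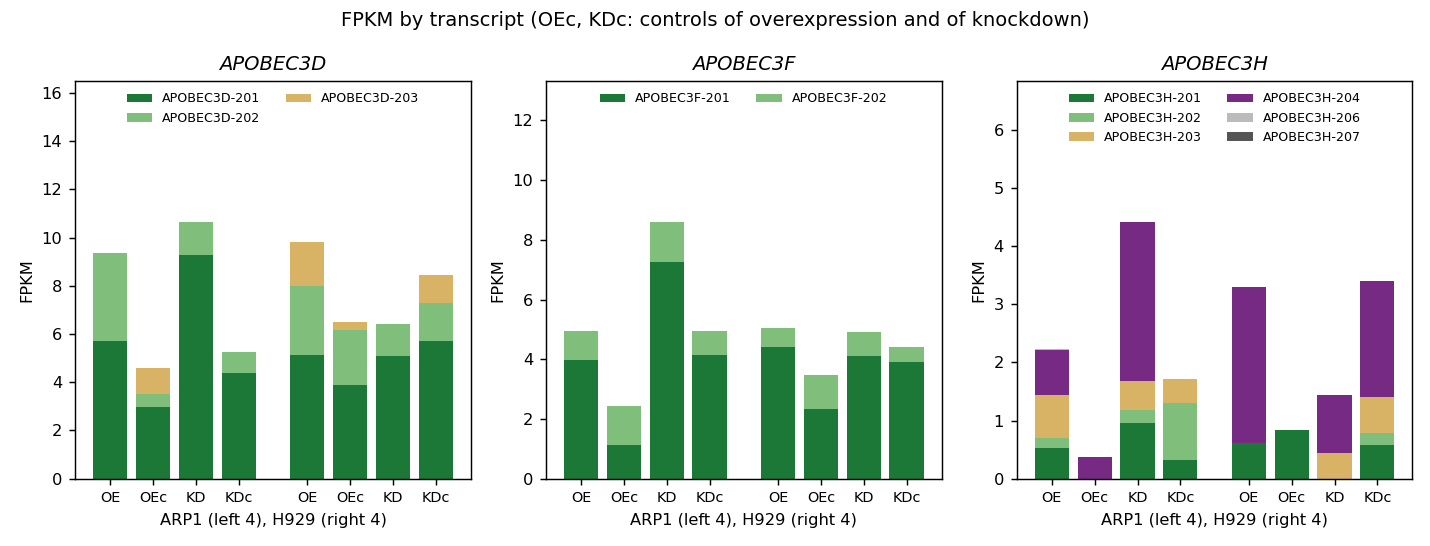
FPKM by transcript (stacked bars from 0) for APOBEC3D, APOBEC3F and APOBEC3H in the 8 libraries, ARP1 on the left and H929 on the right of each panel, with OE and KD for overexpression and the knockdown label and OEc and KDc for their controls. The bars of APOBEC3H change their make-up between libraries, with APOBEC3H-204 between 0% and 100% of the gene.

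The members lie within 151 kb, and the genes around them are set beside them here. The members' overexpression values took part in the choice of the family, so where they lie relative to unselected neighbours is a description. Of 14 genes listed as neighbours, from JOSD1 on one side to ATF4 on the other, 13 were tested. In the overexpression comparison their log2 ratios ran from -0.56 to 0.20 in ARP1 (median -0.14, 6 of 13 above 0) and from -0.56 to 0.12 in H929 (median -0.12, 4 of 13 above 0). APOBEC3C, APOBEC3D, APOBEC3F, APOBEC3G and APOBEC3H lay above the highest of these in each line, and APOBEC3B lay within their range in ARP1. CBX7, a Polycomb gene that begins 16.1 kb beyond APOBEC3H, stood at 3.28 FPKM with overexpression and 4.09 in its control in ARP1, and at 1.95 and 3.34 in H929. By limma 0 of the 13 were called in that comparison, beside 0.00671% of all genes. Before adjustment 0 had p under 0.05, beside 4.45% of all genes. Between the lines 6 of the 13 were called, all higher in ARP1, with MGAT3 at a log2 fold change of 2.19, beside 13.7% of all genes called higher in ARP1. Of these 6, MGAT3 (at most 0.561 FPKM in H929) and NPTXR (0 in H929) passed the filter only through ARP1, where they are high. Their calls are therefore no independent support for a difference.

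**Figure D4:**
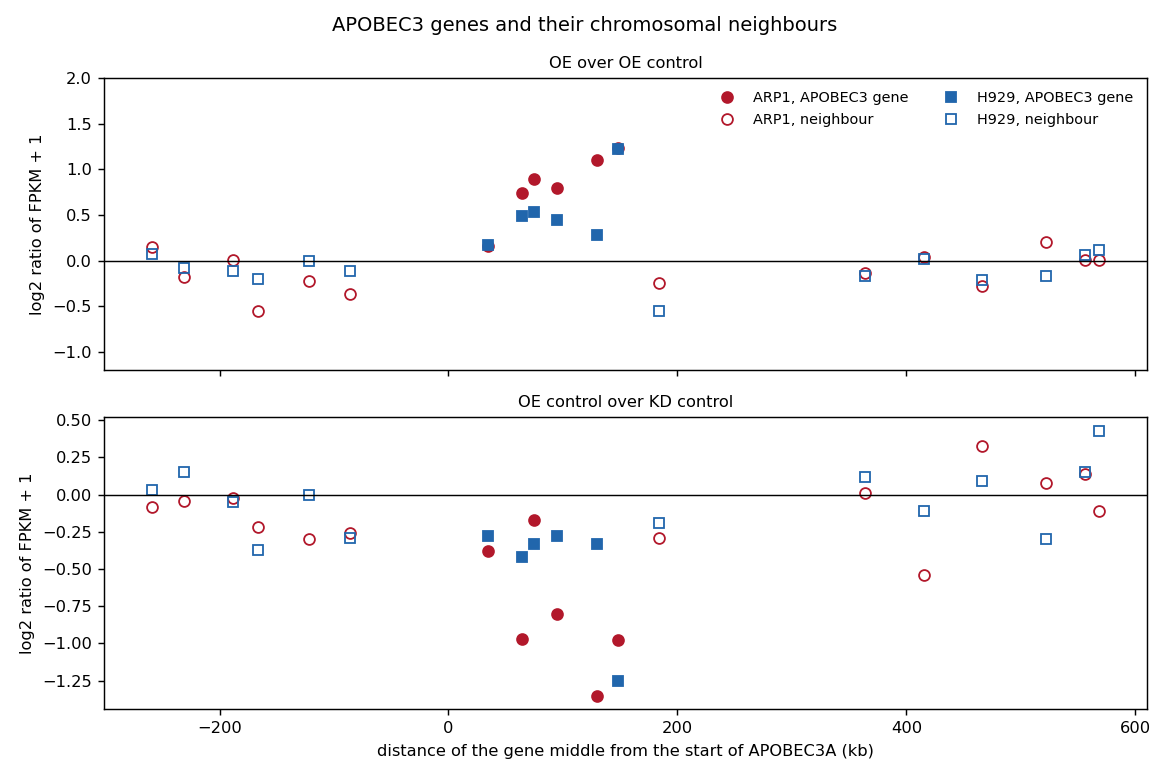
Log2 ratios of FPKM plus 1 (vertical axes) against the distance of each gene's middle from the start of APOBEC3A in kb, for overexpression over its control (top) and the control of overexpression over the control of knockdown (bottom), with filled symbols for APOBEC3 genes, open symbols for neighbours, red circles for ARP1 and blue squares for H929. The APOBEC3 genes lie between 0.16 (APOBEC3B) and 1.24 (APOBEC3H) in the top panel, those other than APOBEC3B above every neighbour, and all lie under 0 in the bottom panel.

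Of the related deaminases, APOBEC1, an RNA editing enzyme, was listed at 0 in all 8 libraries, and APOBEC4 reached at most 0.457 FPKM. APOBEC2, best known from muscle, stood at 3.68 FPKM with overexpression and 2.27 in its control in ARP1, and at 0.656 and 1.08 in H929. It was higher in ARP1 than in H929 (log2 fold change 1.25, SE 0.23, limma adjusted p = 0.0103).

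Genes of pathways linked to the family are given by count and median, beside 48.5% of all genes above 0 in the overexpression comparison. Of 18 genes for the repair of uracil and abasic sites, 9 were above 0 in the overexpression comparison with a median log2 fold change of 0.00. UNG, the main uracil glycosylase, stood at 45.0 FPKM with overexpression and 39.7 in its control in ARP1, and at 40.2 and 35.4 in H929. The 12 genes of NF-kB, a pathway of inflammation and cell survival, had a median of -0.33 with 1 above 0, and RELB, a subunit, stood at -0.75 (SE 0.28). The 13 tested genes of interferon signalling had a median of -0.30 with 3 above 0, and IFI6, an interferon target, stood at -1.02 (SE 0.43). The 12 genes listed for the DREAM and MuvB complexes, MYBL2 and FOXM1 among them, had a median of -0.05. Of these complexes, DREAM represses APOBEC3B outside the cell cycle. The 6 partners of the ubiquitin ligase used by Vif had a median of 0.06. The 11 tested other restriction factors had -0.11, with IFITM2, a barrier to viral entry, at 1.13 (SE 0.56). The 15 genes around ATR and CHK1 had 0.12 with 13 above 0, counting CHEK1 itself, the gene overexpressed, at 0.47. By limma 0 of the 103 tested genes of all 10 lists, neighbours included, were called in the overexpression comparison, beside 0.00671% of all genes. There 8 of the 103 had p under 0.05 before adjustment, beside 4.45% of all genes. For knockdown 0 were called, beside 0.0134% of all genes, and 5 had such a p, beside 9.14%. In the knockdown comparison the medians were -0.06 for NF-kB, -0.08 for interferon signalling, -0.17 for uracil repair and -0.26 for the other restriction factors.

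MAF, whose translocation in myeloma is known to go with high APOBEC3 expression, was high in both lines. It stood at 89.2 FPKM with overexpression and 127 in its control in ARP1, and at 74.0 and 75.0 in H929. In the knockdown arm it stood at 168 in the library labelled knockdown and 151 in its control in ARP1, and at 96.8 and 97.4 in H929.

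By the measure of likeness, the root mean square difference of log2 values centred in each line over the 8 libraries, the nearest of 10491 coding genes to APOBEC3H were CDKN2D (0.33), SREBF1 (0.34) and CGRRF1 (0.34), beside an SD of APOBEC3H of 0.73 within a line. For APOBEC3G, with an SD of 0.48, they were HIST1H2BL (0.12), ARHGAP23 (0.14) and IFITM1 (0.14). In H929 APOBEC3G stood at no more than 0.271 FPKM and varied less than in ARP1, so this likeness rests mostly on the ARP1 libraries. SREBF1 stood at 58.1 FPKM with overexpression and 22.6 in its control in ARP1, and at 92.5 and 29.6 in H929. It stood at 85.6 in the knockdown-labelled ARP1 library and 38.6 in its control, and at 80.1 and 61.9 in H929. In that H929 arm APOBEC3H went the other way, at 1.44 FPKM in the library labelled knockdown and 3.40 in its control.

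The lines expressed genes of plasma cells, though not every listed marker in both. SLAMF7 stood at no more than 0.201 FPKM in H929, against 13.3 or more in ARP1. Summed FPKM of 7 plasma cell markers ran from 1050 to 2168 over the libraries, that of 4 B cell markers from 0.0605 to 6.57, that of 5 T and NK cell markers from 0.379 to 14.3, and that of 5 myeloid markers from 1.21 to 2.89. GNLY made up most of the highest T and NK cell sum, at 14.2 FPKM in the H929 overexpression library and 3.25 in its control. Of the other markers on that list, CD3D and NKG7 were at 0 throughout, and CD2 reached at most 0.0617 FPKM. CD3E stood at 0.198 to 0.673 FPKM in ARP1 and at 0 in H929. The part of such signal in the APOBEC3 levels was not tested. In bulk RNA, fewer cells that express a gene and less RNA per cell cannot be told apart. The total FPKM of a library ran from 631871 to 693299.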

How the data were processed

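RNA was extracted with Trizol, selected for poly(A) and sequenced as paired ends, per the labels' protocols. The authors deposited FPKM per transcript in 8 columns called means, each matched to 1 sample by title. Bowtie 0.12.2, HISAT2 2.0 and StringTie 1.3.0 are named per the submitters' processing notes, as is a mouse build that cannot be that of human transcripts. No source used here gives the human build, the strand setting or the read depth, and no counting error was computed.

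GENCODE release 29 gave each transcript its gene (502 of 88209 were not matched), and FPKM were summed per gene. Values were log2 of FPKM plus 1, a scale that understates the change of low genes. Genes that reached FPKM 1 in 2 or more libraries were fitted in limma 3.58.1 over all 8 libraries, with genotype and line as terms (3 residual degrees of freedom), variances with a trend, two-sided tests and Benjamini-Hochberg adjustment at 0.05. The line is the pairing, taken from the labels. The members and lists were chosen with earlier results of these data known. The rule for named genes took all 7 members, transcripts with mean FPKM of at least 1 (other transcripts named here were chosen after their values were seen), up to 3 genes per list by size of change in the overexpression comparison, and the nearest genes by likeness. UNG, CBX7, MGAT3, NPTXR, GNLY and the other T and NK cell markers were named for their place in the text after their values were seen. Alternatives were no filter, a filter at FPKM 5, a pseudocount of 0.1, scaling by median ratios, scaling to equal totals, no line term, no trend, no transcripts under 300 nt, the 4 libraries of a comparison alone, and each library left out.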

Additional observations from a re-analysis of the deposited data

Results flagged for a closer look

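In 3 members the knockdown comparison ran in opposite directions in the lines, which is what singled them out. APOBEC3H stood at a log2 ratio of 1.0 in ARP1 and -0.85 in H929. APOBEC3D stood at 0.90 in ARP1 and -0.35 in H929, and APOBEC3B at 0.63 in ARP1 and -0.36 in H929. Each value is 1 library over 1 library, and the difference between the lines was not tested. The same ARP1 library was 2-fold or more from its control in 1231 genes, against 536 in H929. CHEK1 stood at 51.6 FPKM in the knockdown-labelled ARP1 library and 61.0 in its control, and at 84.8 and 80.7 in H929; the part of either in these values was not tested.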

How the results depend on the processing

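The direction and the call of a member were the same in 367 of 398 recomputed values, 3 passed the threshold only under an alternative, and 28 changed sign. The 3 were values of APOBEC3B, each with a library labelled knockdown left out. Of the counts of genes called in the overexpression comparison (1), the value was 2 with no filter, 0 without transcripts shorter than 300 nt, and 0 to 3 with each library left out. In the knockdown comparison (2) it was 1 with a pseudocount of 0.1, 0 with FPKM of at least 5, 1 when scaled to equal totals, 5 with no trend, 0 without transcripts shorter than 300 nt, 0 with no replicate block, and 0 to 1005 with each library left out. Between the lines (4035) it was 1948 to 4136 with each library left out, and 3173 with no replicate block, here without the genotype term. Between the controls (8) it was 5 with no filter, 2 with no replicate block, 3 without transcripts shorter than 300 nt, and 0 to 14 with each library left out. The replicate block changed no call of a member. Where a library was left out, the lone library of its genotype is assumed to vary like the others, and the cause of the changes was not tested.

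Among members, APOBEC3C stood at 0.01 in the knockdown comparison and at -0.05 between the lines when scaled to equal totals. With each library left out, the log2 fold change of APOBEC3B ran from -0.03 to 0.37 in overexpression and from -0.40 to 0.67 in knockdown. In knockdown it ran from -0.16 to 0.14 for APOBEC3C, from -0.23 to 0.78 for APOBEC3D, from 0.01 to 0.80 for APOBEC3F, from -0.19 to 0.26 for APOBEC3G and from -0.76 to 0.91 for APOBEC3H. Between the lines it ran from -0.06 to 0.13 for APOBEC3C, from -0.36 to 0.05 for APOBEC3D, from -0.09 to 0.27 for APOBEC3F and from -0.51 to 0.10 for APOBEC3H. Between the controls it ran from -0.57 to 0.07 for APOBEC3D. APOBEC3G kept its call between the lines under every alternative run. It passed the filter only through ARP1, the line where it is high, so the repeated call is no independent support for the difference. With a pseudocount of 0.1 the overexpression log2 fold change of APOBEC3H was 2.08 in place of 1.23 and that of APOBEC3G 1.54 in place of 0.69, and between the controls APOBEC3G stood at -1.78 in place of -0.84 and APOBEC3H at -1.92 in place of -1.12.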

Other observations

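A read-through gene, AL022318.4, spans APOBEC3C and APOBEC3D and was listed apart from both. It stood at 1.10 FPKM with overexpression and 1.19 in its control in H929, and at 0.777 in the H929 library labelled knockdown and 1.04 in its control. In ARP1 it stood at 5.59e-05 with overexpression and 0.0303 in its control, and at 0.249 in the library labelled knockdown and 0.000205 in its control. Every ARP1 library thus lay below every H929 library (limma log2 fold change of ARP1 over H929 -0.92, SE 0.21, adjusted p = 0.0221), although it passed the filter only through H929, where it is high, while APOBEC3C and APOBEC3D did not differ past the threshold between the lines. How reads were divided among the 3 genes was not tested.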
